A study of Mus musculus with 8 samples.

Results

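Rragd, which encodes the Rag GTPase RagD, had more coverage in Nudt21-cKO than in WT macrophages both before and after IFNγ/LPS stimulation. The differences of the genes of mTOR and Raptor, relative to the median gene, lay between -0.22 and 0.08 on the log2 scale. In coverage not set against the median gene, both of these genes were higher in cKO at 4 h, by 0.44 and 0.28. The genes described are Rraga, Rragc, Rragd, Flcn, Fnip1, Fnip2, Lamtor1, Mtor and Rptor, 9 of the 21080 gene symbols in the tables. They were chosen by name with the coverage differences between cKO and WT at 0 h and 4 h in these samples already known, and are treated as selected on them, so their genotype differences are given as a description with standard errors and no p-value. All 9 passed the filter on low values, which kept 16284 genes.

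The cells were bone marrow-derived macrophages (BMDMs), grown in culture from femur marrow with M-CSF, and their RNA was sequenced. WT mice were sex-matched littermates that carried LysM Cre. Nudt21-cKO (cKO) mice carried Nudt21 fl/fl with LysM Cre, which acts in myeloid cells (macrophages, monocytes and neutrophils) and not in macrophages alone. The ages of these mice are not given in the sources used here. The 8 samples formed 4 groups of 2, namely WT and cKO at 0 h without stimulation, and WT and cKO that received IFNγ at 50 ng/ml overnight and then LPS at 50 ng/ml for 4 h. Each sample was a pool of the BMDMs of 2 mice. WT samples are numbered 1 and 2 and cKO samples 3 and 4 at both times. The tables do not name the unit of their values. They were read as the average depth of reads over the bases of a gene, and levels of different genes are compared per length on that reading. Such a value also depends on how much of a 3'UTR is kept. The paper reports shorter 3'UTRs in cKO BMDMs for most genes whose polyA site use changed. A change in the amount of RNA and a change in 3'UTR length therefore cannot be told apart from these values.

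Rag GTPases sit on the lysosome as heterodimers of RagA or RagB with RagC or RagD, and they bring mTORC1, the growth kinase complex of mTOR and Raptor, to the lysosomal surface when amino acids are plentiful. Ragulator, whose LAMTOR1 subunit is anchored in the membrane, holds the Rag heterodimer there. Folliculin (FLCN) with FNIP1 or FNIP2 is the GTPase-activating protein for RagC and RagD, and it is needed for mTORC1 to phosphorylate TFEB and TFE3, the transcription factors of lysosome and autophagy genes. In macrophages this pathway is known for tying nutrient supply to lysosome function and inflammatory output.

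The sequences that bear on the deleted gene come first. NUDT21 is the subunit of cleavage factor Im that binds UGUA in the 3'UTR of pre-mRNA, and the last UGUA of the 3'UTR is shown for the 3 members with the most copies, within 30 bases of the RefSeq-matched GENCODE M21 transcript on GRCm38, written as DNA with the element in capitals.
Rragd, chr4:33021957-33021986, plus strand: ctaggacttcattTGTAacacagtcttcag
Fnip1, chr11:54518161-54518190, plus strand: tcaaatgtacaccTGTAttataataacctc
Flcn, chr11:59791693-59791722, minus strand: tactgtggtggttTGTAtgtgctctgccca
The copy shown began 211 bases from the 3' end of the model in Rragd, 62 in Fnip1 and 302 in Flcn. Of the tested genes with a 3'UTR of at least 100 bases, 54.9% had a copy in the last 100 bases. The 3'UTR of Rragd held 25 copies in 3382 bases, that of Fnip1 22 in 2659 bases and that of Flcn 11 in 1202 bases. The other 6 members held 1 to 6 copies, at 2.71 to 7.06 per kb. Over 12583 tested genes with a 3'UTR of at least 100 bases the median was 6 copies and 5.16 per kb, against 7.39 per kb in Rragd, 8.27 in Fnip1 and 9.15 in Flcn. Of the others Rraga (7.06) lay above that median, and Rragc (4.59), Fnip2 (2.71), Lamtor1 (3.72), Mtor (4.86) and Rptor (3.12) lay below it. The model used for Fnip2 has a 3'UTR of 369 bases with 1 copy, whereas a longer coding model without a RefSeq match has 3689 bases with 19 copies. A copy of these letters is a description of the sequence and no evidence of binding, and use of alternative 3' ends was not analysed here.

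The other element searched was CACGTG, the palindromic core that TFEB and TFE3 recognise, in the promoter window of each gene from 250 bases before to 50 bases after its start (RefSeq, GRCm38.p6). It was in the windows of 3 of the 9 members, shown here with the element in capitals.
Rragc, chr4:123917309-123917338, plus strand: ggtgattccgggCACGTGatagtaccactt
Fnip1, chr11:54438092-54438121, plus strand: tcagtttgctgcCACGTGatacggctcgtc
Lamtor1, chr7:101905757-101905786, plus strand: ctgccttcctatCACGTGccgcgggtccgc
The element began 112 bases before the start in Rragc, 75 in Fnip1 and 68 in Lamtor1. Among tested genes with a window 11.1% held it, and among all windows 7.15%. The longer form TCACGTG, on either strand and overlapping the same letters, was in the same 3 windows. Of the tested genes with a window 6.55% held it. The letters were not in the windows of the other 6 members, Rragd and Flcn included.

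Summed coverage was 14950347 to 17954882 per sample, but the median tested gene had a coverage of 149 to 166 at 0 h and 49.8 to 70.4 at 4 h. Differences are therefore given on log2(coverage + 0.1) with each sample centred on its median, and beside them on the deposited scale, where the median gene was shifted by 0.28 between the genotypes at 4 h, by 0.09 at 0 h, by -1.24 with stimulation in WT and by -1.03 in cKO. Nudt21 had a coverage of 718 and 641 in WT against 158 and 172 in cKO at 0 h, and of 547 and 575 in WT against 142 and 115 in cKO at 4 h, so the targeted gene followed the labels in all 8 samples. All 8 macrophage markers were present in every sample, but they differed between the genotypes in both directions. At 0 h the cKO samples were below the WT samples for Adgre1 (20130 and 24458 in WT against 13820 and 14295 in cKO), Csf1r, Itgam and Fcgr1 (2541 and 2397 against 1318 and 1338) and above them for Cd68 (45504 and 42908 against 69414 and 73397) and Lyz2. At 4 h they were below for Adgre1 and Fcgr1 and above for Cd68, Lyz2 and Mertk. The summed coverage of the 8 overlapped between the genotypes at 0 h (120530 and 129084 against 123746 and 132928) and was higher in cKO at 4 h (65060 and 64070 against 70588 and 75278). Of the 5 neutrophil markers, S100a8, S100a9, Ngp and Camp were also present, while the defining marker Ly6g was at 0 to 7.37. The summed coverage of the 5 was 21926 and 23670 in WT against 25366 and 33937 in cKO at 0 h, and 17325 and 21345 in WT against 21684 and 24704 in cKO at 4 h. In uncentred coverage the neutrophil sum was thus higher in cKO than in WT at both times. The total coverage of the samples was as well, at 15751245 and 15827594 in WT against 16650103 and 17744522 in cKO at 0 h. At 4 h it was 15552049 and 14950347 in WT against 17360205 and 17954882 in cKO. The sums of both lists were not scaled to these totals, and the part of both marker lists in the results was not tested. The marker lists of T cells, B cells, dendritic cells, fibroblasts and erythroid cells each summed to at most 203 in any sample. In pooled cells a change in the number of cells that express a gene and a change in RNA per cell cannot be told apart.

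Within unstimulated WT BMDMs the members spanned a wide range of levels. Lamtor1 (3438 to 3965) and Rragc (3123 to 3718) were highest and overlapped. Fnip2 followed at 2115 to 2489. Rraga (1214 to 1423) and Flcn (1100 to 1467) overlapped each other and lay above Fnip1 (1020 to 1069). Rptor, Mtor and Rragd came last, and Rragd, at 157 to 204, was the lowest of the 9 genes. In unstimulated cKO BMDMs the same gene lay above Rptor and Mtor. After stimulation Rragd was still the lowest member in WT, but in cKO Flcn, at 121 to 123, lay below it, at 133 to 165.

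**Figure D1:**
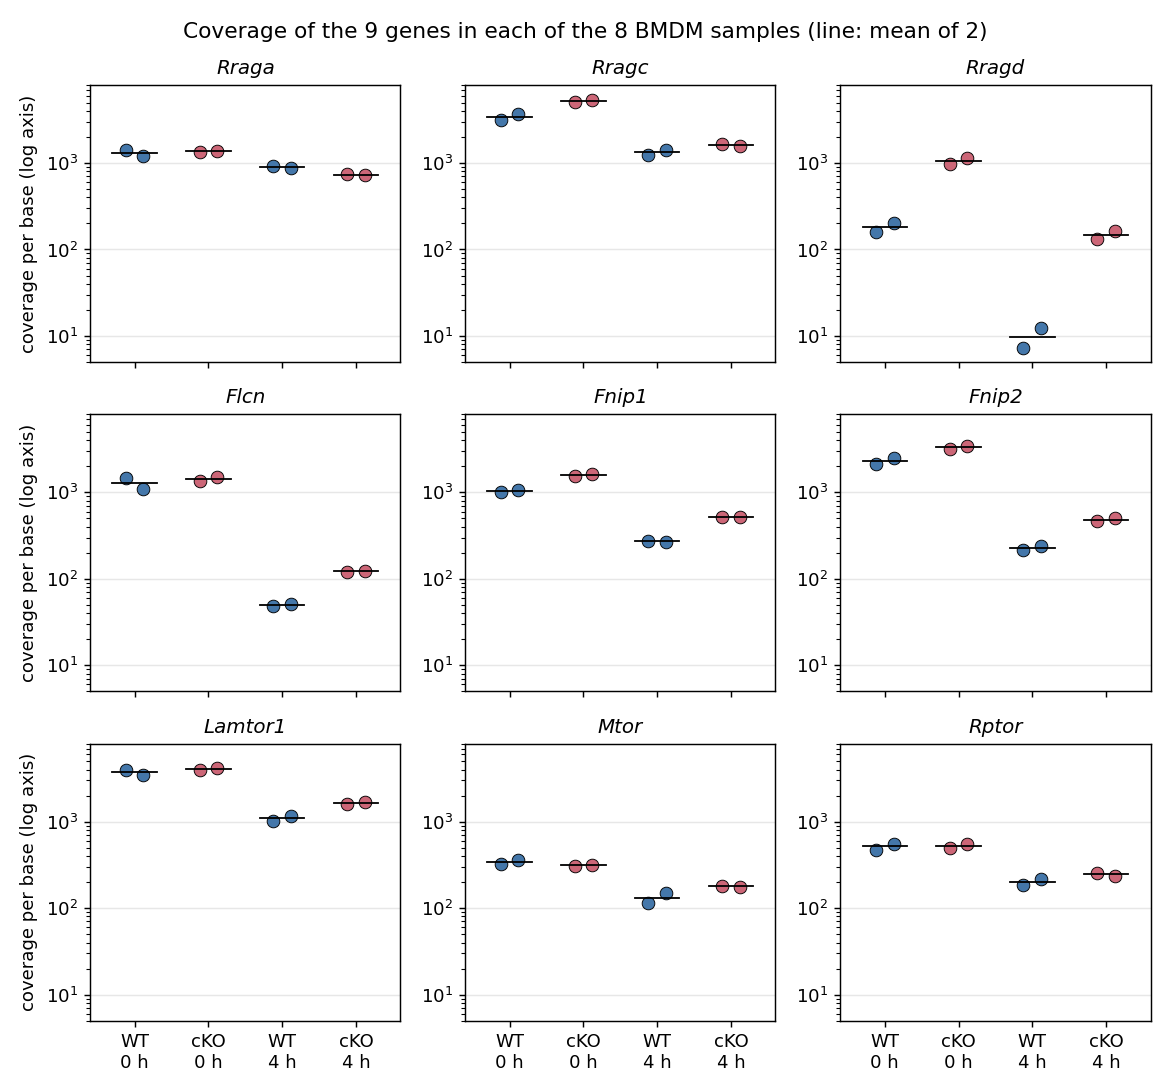
Coverage per base (log axis) of the 9 genes in each of the 8 BMDM samples, with WT in blue, cKO in red and a line at the mean of the 2 samples of a group. The points of Rragd separate the genotypes at each time, whereas those of Rptor overlap between the genotypes at 0 h.

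Of the 4 genes that encode Rag GTPases, 3 are members. Rragd (chr4:32983037-33022180, plus strand; positions are on GRCm38) encodes RagD, which forms the Rag heterodimer in place of RagC. At 0 h its coverage was 157 and 204 in WT against 985 and 1129 in cKO. After 4 h it was 7.19 and 12.4 in WT against 133 and 165 in cKO. Both cKO samples were above both WT samples at each time. The centred log2 difference was 2.46 (SE 0.25, 5.50-fold) at 0 h and 3.60 (SE 0.25, 12.1-fold) at 4 h, and on the deposited scale 2.55 and 3.96. Leaving out each sample in turn kept it between 2.26 and 2.66 at 0 h and between 3.34 and 3.86 at 4 h.

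Rragc (chr4:123917446-123936997, plus strand) encodes RagC, and had more coverage than Rragd in each of the 8 samples. Its coverage at 0 h was 3123 and 3718 in WT against 5042 and 5344 in cKO. At 4 h it was 1227 and 1432 in WT against 1650 and 1576 in cKO. The groups did not overlap at 0 h, where the centred difference was 0.51 (SE 0.12, 1.43-fold), and ran from 0.38 without WT sample 1 to 0.65, past the fold of 1.5, without WT sample 2. At 4 h the centred difference was -0.08 (SE 0.12), against 0.28 on the deposited scale, so its sign depended on the scaling.

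Rraga, a gene of 1 exon (chr4:86575668-86577285, plus strand), encodes RagA, the usual other subunit of the heterodimer. Its coverage was 1423 and 1214 in WT against 1346 and 1393 in cKO at 0 h, with overlapping groups. At 4 h it was 932 and 876 in WT against 739 and 723 in cKO, and both cKO samples were lower. The centred difference at 4 h was -0.67 (SE 0.15, 1.59-fold lower), past the study's rule of a fold above 1.5 with an unadjusted p under 0.05. It was outside the rule under the other 3 scalings, at -0.31 on the deposited scale, -0.52 at equal total coverage and -0.48 with quantile normalization, and also without WT sample 1 at 4 h, at -0.50. At 0 h it was -0.04 (SE 0.15).

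Ratios between members within a sample do not depend on a scaling by 1 factor per sample, though quantile normalization would change them. Rragd made up 4.80% and 5.21% of the summed coverage of Rragc and Rragd in WT at 0 h and 16.3% and 17.4% in cKO. After stimulation the share was 0.583% and 0.855% in WT against 7.47% and 9.46% in cKO. The cKO samples were above the WT samples at each time, and the 0 h samples above the 4 h samples in each genotype. Stimulated cKO samples kept a larger Rragd share than unstimulated WT samples.

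Rraga relative to the sum of Rragc and Rragd showed the opposite order. The ratio was 0.434 and 0.309 in WT against 0.223 and 0.215 in cKO at 0 h, and 0.755 and 0.606 in WT against 0.414 and 0.415 in cKO at 4 h. In each genotype it was higher after stimulation. These ratios are a description of the members, with no test.

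**Figure D2:**
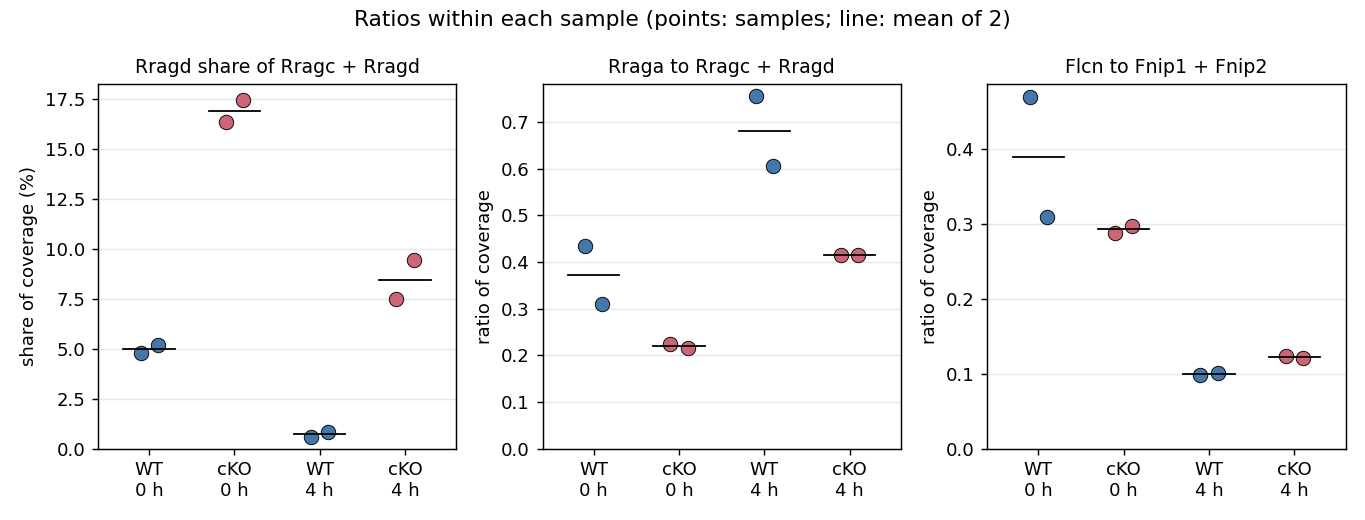
Rragd as a percentage of Rragc plus Rragd, and the ratios of Rraga to Rragc plus Rragd and of Flcn to Fnip1 plus Fnip2, in each of the 8 samples, with a line at the mean of 2. The Rragd share was at least 16.3% in the cKO samples at 0 h and at most 0.855% in the WT samples at 4 h.

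Flcn (chr11:59791408-59810016, minus strand) encodes folliculin. At 0 h its coverage was 1467 and 1100 in WT against 1353 and 1503 in cKO, and the groups overlapped (centred difference 0.07, SE 0.16). At 4 h it was 48.3 and 50.5 in WT against 121 and 123 in cKO. Both cKO samples were above both WT samples there, and the centred difference was 0.94 (SE 0.16, 1.92-fold) against 1.30 on the deposited scale. The genotype difference of Flcn was thus present at 4 h and within the spread of the samples at 0 h, and the difference between the times was 0.87 (SE 0.23).

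Both folliculin partners were higher in cKO at each time. Fnip1 (chr11:54438199-54518235, plus strand) had a coverage of 1020 and 1069 in WT against 1549 and 1623 in cKO at 0 h, and of 277 and 264 in WT against 520 and 516 in cKO at 4 h. The groups did not overlap, with centred differences of 0.51 (SE 0.13, 1.42-fold) at 0 h and 0.58 (SE 0.13, 1.49-fold) at 4 h. Without centring both passed the fold of 1.5, at 0.60 and 0.94. At 4 h the centred value ran from 0.42 without WT sample 2 to 0.73 without WT sample 1. It passed that fold in the latter case, at equal total coverage (0.73), with no filter (0.59) or a stricter one (0.59), with only the samples compared (0.60) and without cKO sample 3 (0.59).

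Fnip2 (chr3:79455974-79567796, minus strand) had a coverage of 2115 and 2489 in WT against 3167 and 3435 in cKO at 0 h. After stimulation it was 214 and 239 in WT against 460 and 503 in cKO. The centred difference was 0.43 (SE 0.13, 1.35-fold) at 0 h and 0.73 (SE 0.13, 1.66-fold) at 4 h. The share of Fnip2 in the sum of both partners lay between 67.1% and 69.9% in the samples at 0 h and between 43.7% and 49.4% at 4 h.

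Flcn relative to the sum of its partners was 0.468 and 0.309 in WT against 0.287 and 0.297 in cKO at 0 h. At 4 h it was 0.0984 and 0.1004 in WT against 0.123 and 0.120 in cKO. The ratio was lower at 4 h than at 0 h in both genotypes, and cKO lay below WT at 0 h and above it at 4 h without overlap.

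Lamtor1 (chr7:101905904-101926675, plus strand) encodes the membrane anchor of Ragulator. Its coverage was 3965 and 3438 in WT against 3939 and 4218 in cKO at 0 h, with overlapping groups, and 1015 and 1160 in WT against 1583 and 1697 in cKO at 4 h. The centred difference was 0.05 (SE 0.11) at 0 h and 0.24 (SE 0.11, 1.18-fold) at 4 h. The uncentred value at 4 h was 0.60, just past the fold of 1.5. Exons of Lamtor1 share 600 bases with Lrrc51 on the opposite strand, which had a mean coverage of 39.3. The library kit does not mark strand, so reads of the shared bases cannot be assigned to either gene. The same holds for 264 bases of Rragc shared with 4930535I16Rik and 84 bases of Rptor shared with Rptoros.

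Mtor (chr4:148448611-148557683, plus strand) encodes the kinase. Its coverage was 320 and 363 in WT against 308 and 316 in cKO at 0 h, and 115 and 150 in WT against 181 and 174 in cKO at 4 h. The centred difference was -0.22 (SE 0.11) at 0 h and 0.08 (SE 0.11) at 4 h.

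Rptor (chr11:119602905-119899576, plus strand) encodes Raptor, which recruits substrates to the kinase. Its coverage was 475 and 558 in WT against 495 and 545 in cKO at 0 h, and 186 and 220 in WT against 258 and 232 in cKO at 4 h. The centred differences were -0.08 at both times (SE 0.12), and on the deposited scale they were 0.01 and 0.28. Over the 4 scalings Mtor ran from -0.28 to -0.13 at 0 h and from 0.08 to 0.44 at 4 h, and Rptor from -0.12 to 0.01 and from -0.08 to 0.28.

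Under the study's rule 4 of the 9 members were called for genotype at 4 h on the centred scale, with Rragd, Flcn and Fnip2 higher and Rraga lower. Of all 16284 genes 20.5% were called at 4 h in either direction, 9.88% higher and 10.6% lower (20.7% and 4.39% on the deposited scale). At 0 h 1 member, Rragd, was called, where 12.6% of all genes were. The counts on the deposited scale were 5 of 9 at 4 h against 25.1% of genes and 3 of 9 at 0 h against 12.9%, all of them higher. Rragd, Flcn and Fnip2 at 4 h and Rragd at 0 h were called under all 4 scalings. Counted by sample, both centred cKO values lay above both WT values for 5 members at 4 h (25.8% of all genes) and below for 3 (38.3%), and at 0 h above for 4 (28.8%) and below for 1 (31.0%). In uncentred coverage they lay above for 8 members at 4 h (47.3% of all genes) and below for 1 (13.9%). The members were listed with these comparisons known, so nothing is read from the counts.

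**Figure D3:**
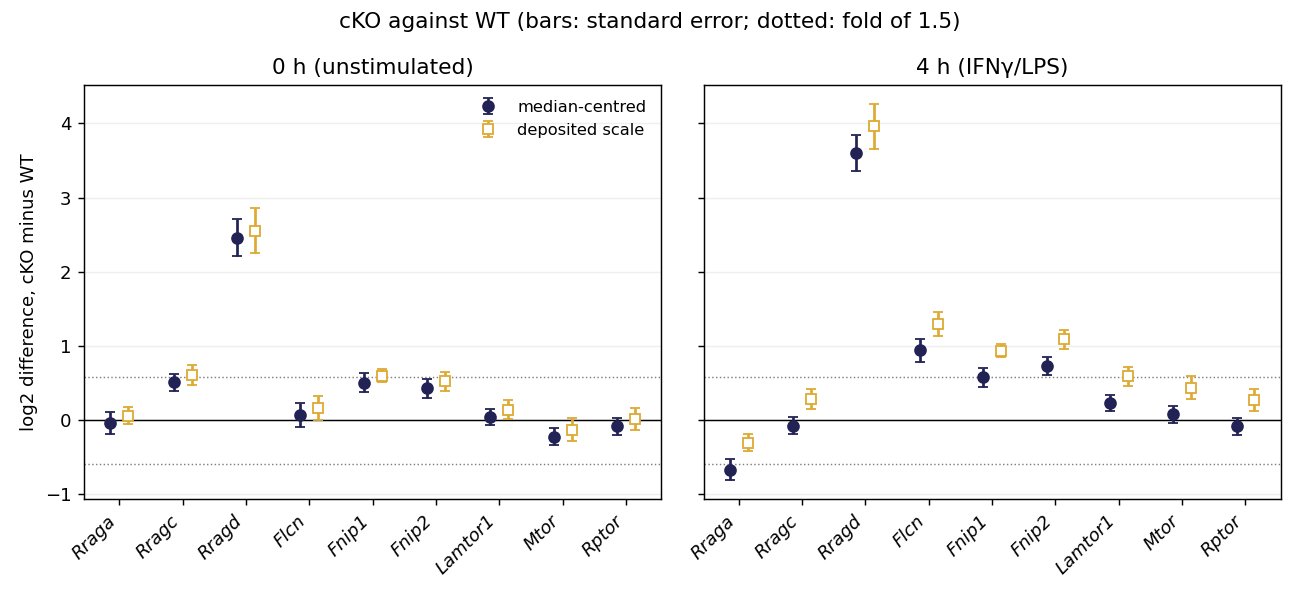
Difference between cKO and WT (log2) of each member at 0 h and 4 h, median-centred (filled circles) and on the deposited scale (open squares), with standard errors from limma and dotted lines at a fold of 1.5. Rragd lies above the other 8 genes at both times, at 2.46 and 3.60 on the centred scale.

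The genotype difference at 4 h minus that at 0 h was 1.14 (SE 0.35) for Rragd, 0.87 for Flcn, -0.63 (SE 0.21) for Rraga and -0.59 (SE 0.16) for Rragc on the centred log2 scale. These 4 members lay past the fold and p rule, as 16.3% of all genes did. With an adjusted p (limma) in the rule 0 members did, Flcn included, beside 2.12% of all genes. This comparison is made of the genotype differences that were known when the members were listed, so it too is a description and nothing is read from the counts. Rraga and Rragc were outside the rule on the deposited scale (-0.36 and -0.32), at equal total coverage and with quantile normalization, Rragc also with another filter or a pseudocount of 1, and Rragd with quantile normalization (0.59). With each sample left out in turn, Flcn kept its call, at 0.68 to 1.07. Rragd kept it without WT sample 1 at 0 h, WT sample 2 at 4 h or cKO sample 3 at 4 h and lost it without any of the other 5 (0.87 to 1.40 over the 8). Rraga lost it without 6 of the 8 samples (-0.80 to -0.47) and Rragc without 4 (-0.72 to -0.45). Fnip1, Fnip2, Lamtor1, Mtor and Rptor had differences between -0.0033 and 0.30.

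The response to IFNγ/LPS is another contrast than the genotype differences and was tested within each genotype, but it uses the same samples, and its p-values are not independent of the choice of the members. With the replicate number as a block, 4 members in WT and 3 in cKO had an adjusted p under 0.05 (limma), against 5 and 6 without it. Of the 9 members Flcn fell most. Its centred log2 change was -3.21 (SE 0.16, 9.28-fold, limma adjusted p = 7.6e-05) in WT and -2.35 (SE 0.16, 5.09-fold, adjusted p = 0.00022) in cKO. Rragd fell by 2.77 in WT (SE 0.25, adjusted p = 0.00049) and by 1.63 in cKO (SE 0.25, adjusted p = 0.0035), and Fnip2 by 1.87 (SE 0.13, adjusted p = 0.00019) and by 1.58 (SE 0.13, adjusted p = 0.00036). For these 3 genes both stimulated samples were below both unstimulated samples in each genotype, as for 33.0% of all genes in WT and 36.4% in cKO on the centred scale, and the call held under all 4 scalings. On the deposited scale the changes were larger, at -4.68 in WT (25.7-fold) and -3.55 in cKO for Flcn, -4.24 (18.8-fold) and -2.83 for Rragd, and -3.34 (10.1-fold) and -2.78 for Fnip2. Among all genes 22.2% were called lower with stimulation in WT and 22.4% in cKO, and 57.0% and 55.1% in either direction. On the deposited scale 56.0% were called lower in WT and 51.9% in cKO, with 1956 and 2196 genes called higher.

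Fnip1 and Lamtor1 did not reach the fold of 1.5 on the centred scale. Fnip1 was at -0.48 in WT (adjusted p = 0.023) and -0.41 in cKO (adjusted p = 0.040), and at -0.62 and called in WT without sample 1 at 4 h. Lamtor1 was at -0.30 (adjusted p = 0.063) and -0.11 (adjusted p = 0.42). Without centring Fnip1 was at -1.95 and -1.61 and Lamtor1 at -1.77 and -1.31, all of them called, so the sign was the same and the size was not.

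For the remaining 4 members the direction of the response depended on the scaling, for Rragc in WT alone. Rraga rose by 0.93 in WT (SE 0.15, adjusted p = 0.0037) relative to the median gene, but on the deposited scale it was at -0.54, and in cKO it was at 0.30 (adjusted p = 0.14) and -0.91. Rragc was at 0.10 in WT (adjusted p = 0.48) and -0.48 in cKO (adjusted p = 0.017), against -1.36 and -1.69 on the deposited scale. Mtor was at 0.09 (adjusted p = 0.52) and 0.39 (adjusted p = 0.031), and Rptor at 0.12 (adjusted p = 0.42) and 0.12 (adjusted p = 0.43). Both fell on the deposited scale in each genotype, with changes from -1.38 to -0.81. There the 9 members were lower at 4 h in both genotypes, as was the median gene.

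**Figure D4:**
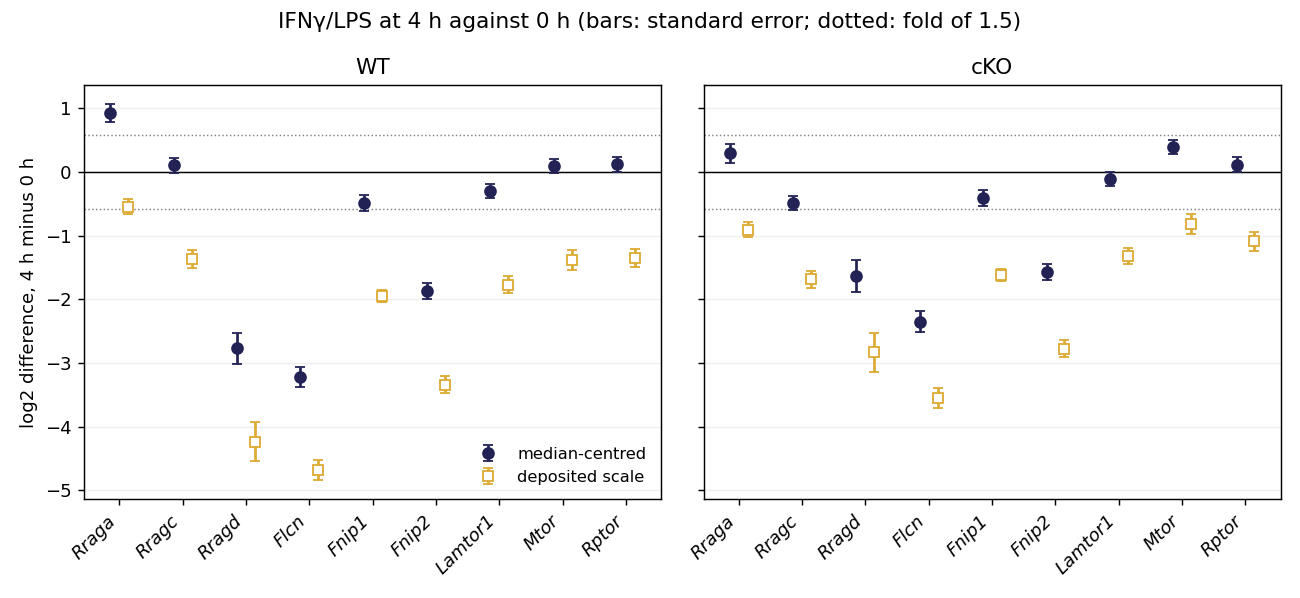
Difference between 4 h of IFNγ/LPS and 0 h (log2) of each member in WT and in cKO, median-centred (filled circles) and on the deposited scale (open squares), with standard errors from limma and dotted lines at a fold of 1.5. Flcn, Rragd and Fnip2 lie below the lower dotted line on both scales in both genotypes, and Rraga in WT lies at 0.93 on one scale and at -0.54 on the other.

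Beyond the members, 47 other genes of the pathway in 7 lists were tested. These lists were also drawn up with earlier results of these data known, so their p-values are not independent of that choice. At 4 h 6 were called higher in cKO and 6 were called lower, where 9.88% and 10.6% of all genes were, and 9 of the 47 had an adjusted p under 0.05, where 15.9% of all genes did. Their median log2 difference was 0.07, against -0.08 over all genes. Uncentred, 15 were called higher and 2 lower, where 20.7% and 4.39% of all genes were. At 0 h 2 were called, both higher, where 12.6% of all genes were called in either direction. None had an adjusted p under 0.05 (limma), where 4.96% of all genes did. An unadjusted p under 0.05 was found for 14 of the 47 and for 3573 of all 16284 genes. With stimulation 14 were called higher and 19 lower in WT, where 34.7% and 22.2% of all genes were. In cKO 11 were called higher and 16 lower, where 32.7% and 22.4% of all genes were. Their median change was -0.32 in WT and -0.37 in cKO, against 0.23 and 0.17 over all genes. Without centring, 36 of the 47 were called lower in each genotype, where 56.0% of all genes were in WT and 51.9% in cKO. In the difference between the genotype effects at 4 h and 0 h, 2 of the 47 genes, Sesn2 and Lamtor3, had an adjusted p under 0.05, where 2.12% of all genes did. Lamtor3 lost this on the deposited scale (0.089), at equal total coverage (0.085), with quantile normalization (0.054) and without 7 of the 8 samples, and with the replicate number as a block both genes lost it (0.16 for Sesn2 and 0.20 for Lamtor3).

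Among the partners of the Rag GTPases and Ragulator, 1 of 6 was called higher and 2 lower at 4 h, beside 9.88% and 10.6% of all genes, and uncentred 1 and 1, beside 20.7% and 4.39%. Slc38a9, the lysosomal arginine sensor that acts on the Rags, had a coverage of 65.1 and 108 in WT against 192 and 189 in cKO (0.82, SE 0.18, adjusted p = 0.043). Lamtor3, a Ragulator subunit, had 899 and 979 in WT against 766 and 748 in cKO (-0.67, SE 0.09, adjusted p = 0.016). That change was outside the rule under the other 3 scalings, at -0.31 on the deposited scale, -0.52 at equal total coverage and -0.49 with quantile normalization. At 0 h Lamtor5, another subunit, was called at 0.64 (SE 0.22) with an adjusted p of 0.18, and the call was lost without 5 of the 8 samples (0.43 to 0.85).

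Rragb encodes RagB, the alternative to RagA. It was low throughout, at 18.3 and 16.7 in WT against 8.36 and 5.24 in cKO at 0 h and at 4.90 and 6.42 in WT against 0 and 1.71 in cKO at 4 h. The cKO samples were below the WT samples at each time. Its fitted difference at 4 h, -4.11 (SE 1.35, adjusted p = 0.10), rests on the sample listed at 0. It was -2.003 without cKO sample 3 and -6.21 without cKO sample 4 of that time, and it moved from -2.36 to -5.78 between pseudocounts of 1 and 0.01. The call was lost with the smaller pseudocount, with only the samples compared, and without any 1 of the 4 WT samples. Rragb made up at most 1.36% of the summed coverage of Rraga and Rragb in any sample.

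Of the 6 amino acid sensors 2 were called higher and 3 lower at 4 h, beside the 9.88% and 10.6% of all genes, and uncentred 3 were called higher and 1 lower, beside 20.7% and 4.39%. Sesn2, a leucine sensor that restrains GATOR2, had a coverage of 335 and 363 in WT against 283 and 292 in cKO at 0 h, and of 27.3 and 29.9 in WT against 101 and 110 in cKO at 4 h. Both cKO samples were below both WT samples at 0 h and above them at 4 h, where the difference was 1.51 (SE 0.11, adjusted p = 0.0044). The other gene called higher was Sesn1, named here beyond the 4 largest changes of the list. Its difference at 4 h was 0.71 (SE 0.21, limma adjusted p = 0.079), and 1.07 uncentred.

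Castor1, the arginine sensor that also binds GATOR2, was called lower at 4 h (-1.11, SE 0.22, adjusted p = 0.034), with 31.8 and 29.97 in WT against 15.5 and 21.5 in cKO. Castor2, its paralog, was at -0.88 (SE 0.22, adjusted p = 0.056). Bmt2, the S-adenosylmethionine sensor SAMTOR, was called lower at -0.86 (SE 0.13, adjusted p = 0.017). Uncentred, Castor1 passed the rule at -0.75 and Castor2 and Bmt2 did not, at -0.52 and -0.50.

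None of the 6 GATOR1 and KICSTOR genes, the 5 GATOR2 genes or the 5 TSC and Rheb genes was called for genotype at either time on the centred scale. Of all genes 20.5% were called at 4 h and 12.6% at 0 h. Uncentred, Nprl2 (0.77), Wdr59 (0.60) and Tsc1 (0.86) were called higher at 4 h and Tsc1 (0.60) at 0 h, all named after their values were seen. On that scale 25.1% of all genes were called at 4 h and 12.9% at 0 h. Among 9 mTOR partners 1 was called lower at 4 h, beside 10.6% of all genes. It was Deptor, an inhibitory subunit (-1.05, SE 0.38, adjusted p = 0.13), at a coverage of 6.16 and 11.5 in WT against 7.32 and 3.67 in cKO, where the groups overlapped. The call was lost without 6 of the 8 samples (-1.52 to -0.57). Uncentred, Deptor was not called (-0.69), and Mlst8 (0.68), Akt1s1 (0.77) and Rictor (0.70), named after their values were seen, were called higher, beside 20.7% of all genes.

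Of the 10 targets 3 were called higher at 4 h and none lower, and uncentred 5 and none, beside the same shares of all genes as for the sensors. Ulk1, the autophagy kinase that mTORC1 phosphorylates, had a coverage of 75.0 and 82.5 in WT against 164 and 186 in cKO (0.79, SE 0.12, adjusted p = 0.018). Tfeb had 31.2 and 46.8 in WT against 68.5 and 83.3 in cKO (0.62, SE 0.17, adjusted p = 0.067), and its call was lost without WT sample 1 (0.45) or cKO sample 4 (0.46) at 4 h, with quantile normalization (0.57) and with only the samples compared (0.64). Its coverage was 1174 and 1126 in WT against 1271 and 1386 in cKO at 0 h. Grb10, an adaptor stabilised by mTORC1, was called at 4 h (1.87, SE 0.20, adjusted p = 0.00999) and at 0 h (0.81, SE 0.20, adjusted p = 0.10), but from a coverage of 0.458 to 7.73 over the 8 samples. With a pseudocount of 1 the difference at 4 h was 0.92, and with an intensity trend the call at 0 h was lost.

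**Figure D5:**
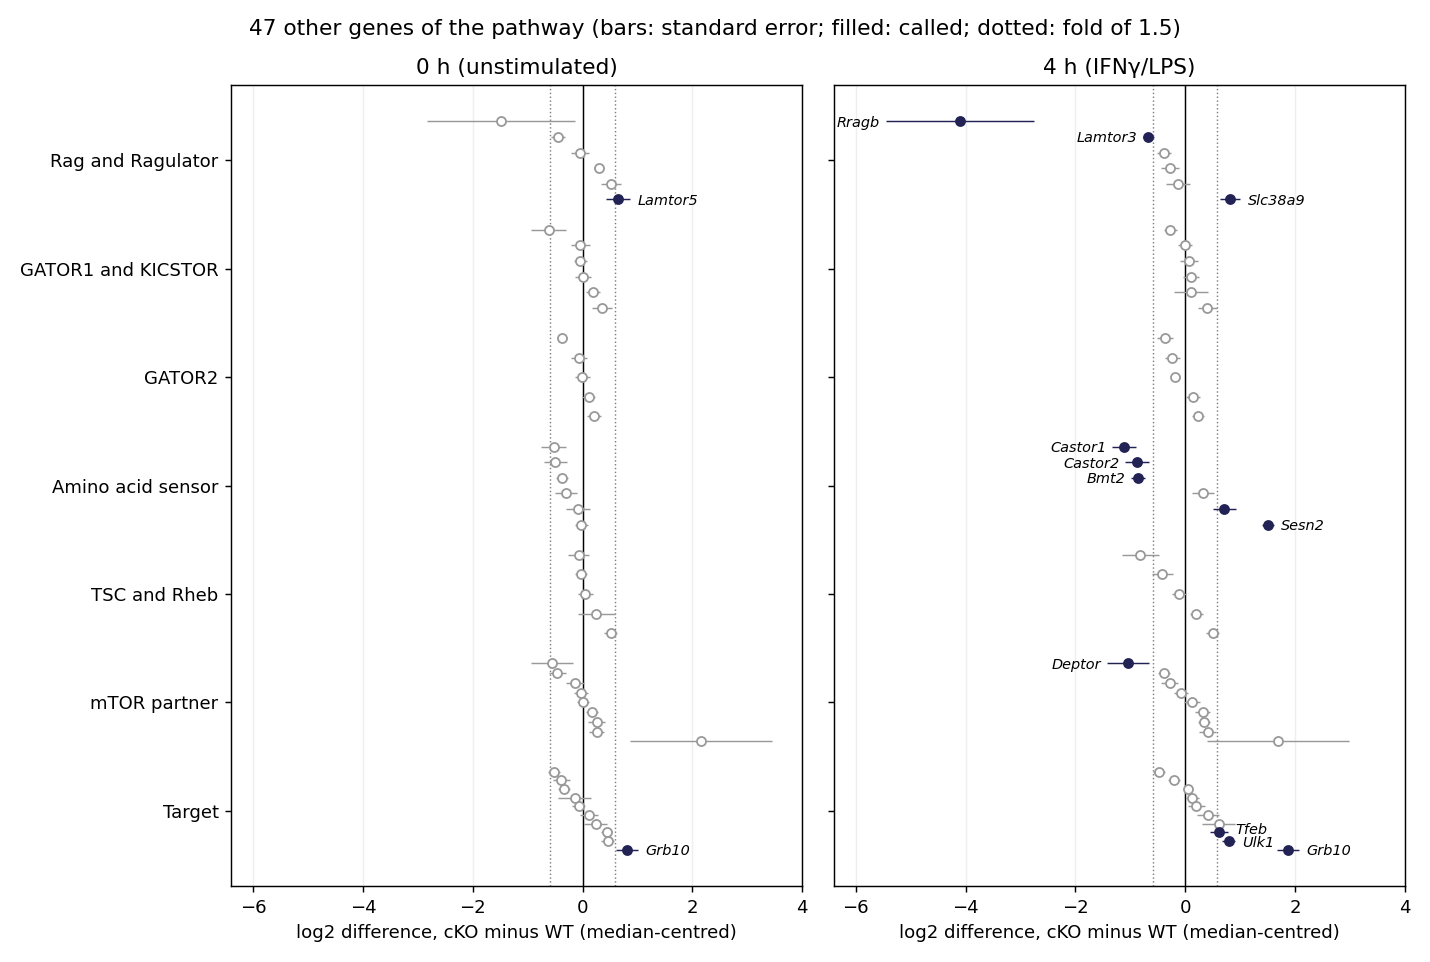
Difference between cKO and WT (log2, median-centred) of the 47 other pathway genes by list at 0 h and 4 h, with standard errors from limma and filled points for genes past the fold of 1.5 and an unadjusted p under 0.05. At 4 h Sesn2 lies at 1.51 and Grb10 at 1.87, and Rragb, at -4.11, has the widest error bar.

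The genes whose centred log2 profile over the 8 samples was most like that of Rragd were Tmem260 (Pearson's r = 0.993), Entpd7 (0.991), Rpap3 (0.990), Capsl (0.989) and Eif4b (0.988). Of the members Fnip1 was nearest (0.952, at percentile 99.48 of all genes), above Lamtor1 (0.828, 95.9), Fnip2 (0.812, 95.3), Flcn (0.718, 91.51) and Rragc (0.563, 81.8). Mtor (-0.518), Rptor (-0.656) and Rraga (-0.874) had negative values, with 31.25%, 16.75% and 2.46% of all genes lower still. On the deposited scale, where these 3 genes were lower after stimulation, the likeness was not computed. All these values share the same 8 samples in 4 groups and describe likeness of pattern alone.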

How the data were processed

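RNA-seq of BMDMs gave 8 samples in 4 groups of 2, grouped from the sample titles. Per the submitters' processing notes and the study's methods, the authors aligned reads with HISAT2 2.2.1 to mm10/GRCm38 and quantified RefSeq genes with StringTie 2.1.7. They deposited 1 value per gene and sample, read from the values as a coverage signal per base with no scaling between samples. The 0 h samples also carry the stimulation in a label and were taken as unstimulated from their titles. The deposited tables also hold 12 columns of the authors' own comparisons (fold changes, p-values and classes), which were not used. Every column of per-sample values was used.

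Log2(coverage + 0.1), for genes whose average over the 8 samples reached 0.5, was median-centred per sample and fitted over all samples with limma 3.58.1 in R 4.3.3, with 4 group means and contrasts for genotype at each time, stimulation in each genotype and their difference. A gene was called at a fold above 1.5 with an unadjusted p under 0.05, the study's rule, and Benjamini-Hochberg adjusted p-values over all 16284 genes stand beside it. The members and lists were chosen with earlier results of these data known. Of 48 listed pathway genes 47 were in the tables. A pathway gene was named if called for genotype at either time or past an adjusted p of 0.05 in the difference between times, up to 4 per list by size of change. The fit was tested on simulated data. Alternatives covered scaling, pseudocount, filter, variance trend, samples in the fit, single samples left out and the replicate number as a block. Gene models came from GENCODE M21 and promoters from RefSeq, both on GRCm38, and CACGTG and TGTA were searched as letters. Paralogous pairs (Rraga and Rragb, Rragc and Rragd, Fnip1 and Fnip2) shared 0 stretches of 50 bases in the models used. Read counts behind the values are not given in the sources used here, so no counting interval was computed. The samples are pools of mice, and p-values measure the spread between these pools alone.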

Additional observations from a re-analysis of the deposited data

Results flagged for a closer look

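Rragc lay above WT in both cKO samples at 0 h (centred log2 difference 0.51) and below WT in both at 4 h (-0.077) on the median-centred scale. The difference at 4 h minus that at 0 h was -0.59 (SE 0.16), a description with no p because both differences were known when the genes were listed. On the deposited scale the difference was above 0 at both times and the change between them was -0.32.

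Sesn2 differed in its genotype effect between 4 h and 0 h by 1.89 (SE 0.15, limma adjusted p = 0.011), lower in cKO in 2 of 2 samples at 0 h and higher in 2 of 2 at 4 h. Over the other settings the adjusted p ran from 0.0054 to 0.16, the highest with the replicate number as a block. Lamtor3 differed by -0.97 (SE 0.13, limma adjusted p = 0.042), with adjusted p-values from 0.0085 to 0.20 over the other settings. It missed 0.05 on the deposited scale (-0.70, adjusted p = 0.089), at equal total coverage (0.085), with quantile normalization (0.054), with no filter (0.075), with the block (0.20) and without 7 of the 8 samples (0.064 to 0.15), and was under it without WT sample 2 at 4 h (0.049).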

How the results depend on the processing

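Of the 9 members, 4 were called for genotype at 4 h, 1 at 0 h, 4 for stimulation in WT, 3 in cKO and 4 for the difference between the times, and of the 47 pathway genes 12, 2, 33, 27 and 9. Of all 16284 genes 3338, 2052, 9274, 8972 and 2657 were. On the deposited scale 3 members were called at 0 h, 8 for stimulation in WT, 9 in cKO (with 42 pathway genes) and 2 for the difference. There 2103, 11077, 10654 and 2851 of all 16284 genes were. At equal total coverage 8, 9 (42 pathway genes) and 2 were called for stimulation in WT, in cKO and for the difference, beside 10919, 10722 and 2600 of 16272 genes. With quantile normalization 7 were called for stimulation in cKO and 1 for the difference, beside 8532 and 2456 of 16284 genes. By construction the deposited scale and equal total coverage move every gene of a comparison by nearly one amount.

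On the deposited scale, at equal total coverage and with quantile normalization, the stimulation effect in WT was -0.54, -0.49 and -0.22 for Rraga, -1.36, -1.31 and -1.33 for Rragc, -1.38, -1.33 and -0.20 for Mtor and -1.35, -1.30 and -0.37 for Rptor. In cKO it was -0.91, -0.94 and -0.62 for Rraga and -1.09, -1.12 and -0.30 for Rptor, and on the first of these scalings -0.81 and on the next -0.85 for Mtor. Each of these was above 0 relative to the median gene.

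With an adjusted p in place of the unadjusted one beside the fold of 1.5 (limma), 7 pathway genes were called at 4 h and 0 at 0 h (14 at an unadjusted p under 0.05), and 2 for the difference, with 0 members (4 at an unadjusted p under 0.05). Counts of members for genotype and for the difference are descriptions, since the members were listed with those comparisons known. Over all genes it left 2104 calls of 3338 at 4 h, 775 of 2052 at 0 h and 346 of 2657 for the difference. Pathway genes called at 0 h numbered 5 with only the samples compared, 5 with quantile normalization, 4 with a pseudocount of 1 and 1 with an intensity trend, and the cause was not tested.

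With single samples left out, 1 to 2 members and 1 to 4 pathway genes were called at 0 h and 1 to 4 members for the difference. Stimulation effects in WT then ran from -0.037 to 0.23 for Rragc, from -0.018 to 0.18 for Mtor and from -0.013 to 0.24 for Rptor. Fnip1 was called at 4 h without WT sample 1 (1.66-fold) or cKO sample 3 (1.501-fold) of that time, and Rragc at 0 h without WT sample 2 (1.57-fold).

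Replicate numbers recur between 0 h and 4 h within a genotype, but deviations of same-numbered samples hardly correlated (r = 0.0204 in WT, 0.0237 in cKO). With 2 samples per group this cannot settle whether the numbers mark pairs, and the main fit left the number out. With it as a block the calls over all genes were 9176 for stimulation in WT, 8871 in cKO and 2552 for the difference, with 4, 3 and 4 members. No gene then had an adjusted p under 0.05 for the difference (limma, 2872 at an unadjusted p under 0.05). Members with an adjusted p under 0.05 numbered 4 in place of 5 for stimulation in WT and 3 in place of 6 in cKO. Genotypes share no replicate numbers, so no paired genotype comparison was possible.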
